A study of Mus musculus with 8 samples.

Results

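Leukocyte-endothelial adhesion molecules were examined in lung RNA of mice given LPS with or without tangeretin. The 9 genes were taken by symbol from the 24584 genes of the series: the endothelial selectins Sele and Selp, the selectin ligand Selplg, the immunoglobulin-type molecules Icam1, Icam2, Vcam1 and Pecam1, and the integrin subunits Itgam and Itgb2. All 9 were in the tables and all 9 had enough counts to be tested. RNA-seq was performed on lung tissue of wild-type male ICR mice aged 6 to 8 weeks, with 4 samples in the LPS group and 4 in the LPS + Tan group. Both groups received Escherichia coli O111:B4 LPS intraperitoneally at 5 mg/kg, and their lungs were taken 12 h later. The LPS + Tan group also received tangeretin, a citrus flavonoid, by the same route, at a dose of 50 mg/kg given 30 min ahead of LPS. Samples of untreated mice were not analysed here, so that the values say nothing about how far LPS itself moved these genes. The sources do not state that each library came from a separate mouse, and the p-values measure the spread between the libraries.

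Leukocytes leave the blood in steps. Selectins on activated endothelium and P-selectin on platelets bind glycosylated ligands such as PSGL-1, the product of Selplg, and slow the leukocyte to a roll. Chemokines then switch on leukocyte integrins, among them Mac-1, the pair of Itgam and Itgb2, which hold the cell on ICAM-1 and ICAM-2, while VCAM-1 is the ligand of the integrin VLA-4. PECAM-1 at the endothelial junction takes part in the passage between the cells. Sele, Icam1 and Vcam1 are known as genes that endothelium turns on through NF-κB in response to LPS, TNF and IL-1, whereas Icam2 and Pecam1 are made by resting endothelium.

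Total counts per sample lay between 38895654 and 39931970, and the smallest count of any of the 9 genes in any sample was 2334, so that counting error was small against the spread between samples. Values are given in CPM (counts scaled to a common sample total, with edgeR's TMM factor applied) when samples are compared, and in FPKM (per kilobase of gene length) when genes are compared. The tissue label held in the data, since Sftpc, the alveolar type 2 surfactant gene, had a median FPKM of 5485 and Cldn5, an endothelial junction gene, one of 409. The neutrophil gene S100a8 had a median FPKM of 4066.

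Sele and Selp are both on chromosome 1 in the GENCODE annotation of GRCm38, the build that the submitters' processing notes name. Sele spans 164048234 to 164057677 and Selp 164115264 to 164150026, both on the plus strand. Icam2 and Pecam1 are both on chromosome 11, at 106377656 to 106388075 and 106654217 to 106750628, on the minus strand. Icam1 is on chromosome 9, Vcam1 on chromosome 3, Selplg on chromosome 5, Itgam on chromosome 7 and Itgb2 on chromosome 10. Itgam shares its locus with Gm49368, a longer gene on the same strand. Gm49368 was not found by its symbol among the genes of the series, so that it held no counts apart from those of Itgam. How reads of the shared part were counted is not given in the sources used here. Genes on the opposite strand overlap Selp, Icam1 and Vcam1, and whether strand was used in counting is not given in the sources used here. Of all the overlapping genes only Gm16548, which overlaps the end of Selp, was in the tables, with 5 to 9 counts per sample.

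The promoters of Sele, Selp and Icam1 are shown because these genes are the inducible members whose promoters RefSeq gave, and because Sele and Selp varied together between samples. Promoters of 4 of the 9 genes were matched in the RefSeq table of GRCm38.p6, the fourth being that of Itgam. The 160 bases before the RefSeq start are given on the plus strand, with capitals marking matches on either strand to GGNNNTTCC, a pattern that many NF-κB sites share, and to TATAAA, the TATA box.
Sele, chr1:164048074-164048233: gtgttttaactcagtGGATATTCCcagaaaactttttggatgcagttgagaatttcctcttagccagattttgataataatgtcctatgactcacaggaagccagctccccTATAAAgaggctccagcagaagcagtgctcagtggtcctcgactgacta
Selp, chr1:164115104-164115263: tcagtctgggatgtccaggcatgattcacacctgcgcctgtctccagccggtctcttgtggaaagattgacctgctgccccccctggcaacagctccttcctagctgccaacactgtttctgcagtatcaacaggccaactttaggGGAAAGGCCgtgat
Icam1, chr9:21015780-21015939: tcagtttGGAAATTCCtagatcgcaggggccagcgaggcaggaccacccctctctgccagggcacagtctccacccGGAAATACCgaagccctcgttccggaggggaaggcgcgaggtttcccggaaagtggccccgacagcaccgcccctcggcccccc
In the whole window of 300 bases, which also takes in the first bases of the transcript, GGNNNTTCC was found at 1 position in Sele, 1 in Selp, 2 in Icam1 and 0 in Itgam. The Sele match began 145 bases before the start. The Icam1 matches began 153 and 84 bases before it, and the first of them fits the pattern on both strands. Of all 32851 promoters in the table, 18.5% held this pattern and 2.85% held more than 1 match of it, counting strands separately. TATAAA began 49 bases before the start of Sele, was not found in Selp or Itgam, and was found in Icam1 only after the RefSeq start. The GENCODE start of Icam1 lies 45 bases beyond that of RefSeq, so that by it TATAAA began 32 bases and the GGNNNTTCC matches 198 and 129 bases before the start, whereas for Sele and Selp both annotations give the same start. TATAAA stood somewhere in the window in 13.6% of all promoters. These matches describe letters and not binding.

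Icam1 had the highest level of the 9 genes, with an FPKM of 360 to 561 and a median of 444 over the 8 samples, which was above 99.4% of the tested genes. Pecam1 followed with a median FPKM of 341. The 2 genes were close, since Icam1 was above Pecam1 in 6 of the 8 samples and their ranges overlapped. A wide step separated Pecam1 from Itgam, the αM chain of Mac-1, at a median FPKM of 98.0, without overlap between the ranges. Itgb2, the β2 chain, had a median FPKM of 91.6, and Vcam1 one of 86.2. These 3 genes could not be put in order, since Itgam was above Itgb2 in 6 of 8 samples and Itgb2 above Vcam1 in 4 of 8. Icam2 had a median FPKM of 65.6 and was below Vcam1 in 7 of 8 samples. Selplg, at 41.3, was below Icam2 in 8 of 8 samples, although the ranges over all samples overlapped. The endothelial selectins were lowest, with median FPKM of 27.7 for Sele and 24.3 for Selp, and Sele was the higher of the 2 in 6 of 8 samples. The least of the 9 was still above 83.2% of the tested genes.

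No difference between LPS + Tan and LPS in the 9 genes passed a test. By edgeR's quasi-likelihood test 0 of 9 passed an adjusted p below 0.05 and 0 passed an unadjusted p below 0.05. The adjusted p was lowest for Selp, at 0.924. Among all 15706 tested genes, 0% passed the adjusted threshold and 5.12% the unadjusted one. The study's thresholds, which add an absolute log2 fold change above 1 to the unadjusted p, were passed by 0 of the 9 and by 0.649% of all. DESeq2 also called 0 of the 9 at either threshold, while of the 15507 genes to which it gave an adjusted p it called 35, or 0.226%, at an adjusted p below 0.05 and 6.26% at an unadjusted one. The groups overlapped in CPM for all 9 genes, where 2.73% of the tested genes had fully separate groups. Both endothelial selectins had lower means in LPS + Tan and the other 7 genes had slightly higher ones, and none of these differences passed the test. The median log2 fold change of the 9 was 0.081, against 0.0070 over all tested genes.

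**Figure D1:**
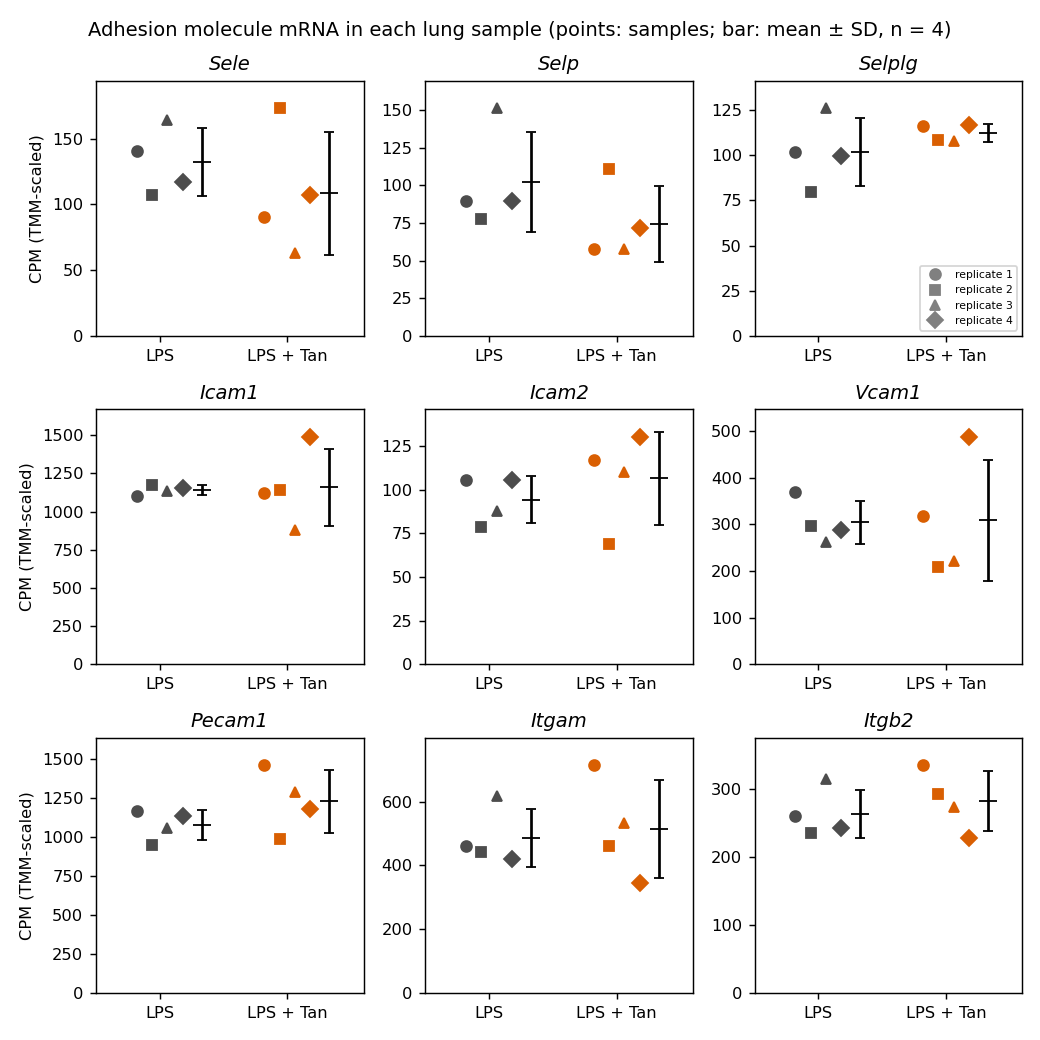
CPM of the 9 adhesion molecules (vertical axes, from 0, TMM-scaled) in the 4 LPS samples (grey) and the 4 LPS + Tan samples (orange), with the replicate number as symbol and the mean and SD (n = 4) beside the points. The groups overlap in every panel, and LPS + Tan replicate 2 lies highest of its group for Sele and Selp and lowest for Icam2, Vcam1 and Pecam1.

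Sele encodes E-selectin, known as a selectin of activated endothelium. Its CPM was 141, 107, 165 and 117 in LPS replicates 1 to 4 and 90.2, 173, 63.4 and 107 in LPS + Tan replicates 1 to 4. The highest and the lowest of the 8 samples were both in the LPS + Tan group, and the mean was 132 ± 25.9 (SD, n = 4) in LPS and 108 ± 46.7 (SD, n = 4) in LPS + Tan. The log2 fold change was -0.29 (SE 0.27, 95% interval -0.88 to 0.31, adjusted p = 0.957 by edgeR), smaller than the spread between samples. As bulk tissue was sequenced, a difference in the number of cells of a type and a difference in RNA per cell cannot be told apart, for Sele and for the other 8 genes alike.

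Selp encodes P-selectin, kept in granules of endothelium and platelets and brought to the surface on activation. Its CPM was 89.9, 77.7, 151 and 89.4 in LPS replicates 1 to 4 and 57.4, 111, 57.9 and 71.5 in LPS + Tan replicates 1 to 4. In LPS + Tan, 3 samples were below every LPS sample and replicate 2 was above all of LPS but replicate 3. The mean was 102 ± 33.2 (SD, n = 4) in LPS and 74.4 ± 25.2 (SD, n = 4) in LPS + Tan, a log2 fold change of -0.45 (SE 0.25, adjusted p = 0.924 by edgeR). This was the lowest unadjusted p of the 9, at 0.104 by edgeR and 0.0752 by DESeq2. The 95% interval, from a fold of 0.493 to one of 1.08, was the only one of the 9 that reached a halving. Platelets also hold Selp RNA, and the summed CPM of 9 platelet markers was 36.4, 35.4, 34.1 and 39.1 in LPS replicates 1 to 4 and 21.1, 40.1, 25.6 and 33.1 in LPS + Tan replicates 1 to 4. The sum was lowest in LPS + Tan replicates 1 and 3, in which Selp was lowest too. As for Selp, the sum in LPS + Tan replicates 1, 3 and 4 was below that of every LPS sample. LPS + Tan replicate 2 had the highest sum and the highest Selp of its group. LPS replicate 3 had the highest Selp of all and the lowest platelet sum of its group. Of these markers 2 had a positive and 7 a negative log2 fold change with a median of -0.24, and 0 were higher and 1 was lower at an unadjusted p below 0.05, against 2.87% higher and 2.25% lower among all tested genes. The lower one was the platelet chemokine gene Ppbp (log2 fold change -0.68, adjusted p = 0.922 by edgeR), while the largest change of the list was that of Treml1, a receptor gene of platelet granules, in the other direction and not past the threshold (log2 fold change 0.74, adjusted p = 0.924 by edgeR). All 9 platelet markers were detected, and their part in the Selp values was not tested.

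Selplg encodes PSGL-1, the ligand that neutrophils and other leukocytes carry for P-selectin. Its CPM was 102, 79.8, 126 and 99.4 in LPS replicates 1 to 4 and 116, 108, 108 and 117 in LPS + Tan replicates 1 to 4. The LPS + Tan samples lay close together inside the range of the LPS samples, with a mean of 112 ± 4.77 (SD, n = 4) against 102 ± 18.9 (SD, n = 4). The log2 fold change was 0.14 (SE 0.12, adjusted p = 0.950 by edgeR).

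Icam1 encodes ICAM-1, the main endothelial ligand of the β2 integrins, which alveolar epithelium also carries. Its CPM was 1100, 1174, 1135 and 1152 in LPS replicates 1 to 4, and 1124, 1140, 880 and 1488 in LPS + Tan replicates 1 to 4. The 4 LPS samples hardly differed, with a SD of 2.75% of their mean, whereas in LPS + Tan it was 21.6%, through replicate 3 below and replicate 4 above every other sample. The means were 1140 ± 31.4 (SD, n = 4) in LPS and 1158 ± 250 (SD, n = 4) in LPS + Tan. The fold was 1.02, with a 95% interval of 0.809 to 1.28 (adjusted p = 0.998 by edgeR), so that a change beyond this interval in either direction was not seen at this spread.

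Vcam1 encodes VCAM-1, the ligand of VLA-4 on monocytes and lymphocytes. Its CPM was 369, 297, 263 and 288 in LPS replicates 1 to 4 and 319, 208, 221 and 488 in LPS + Tan replicates 1 to 4. As for Icam1, LPS + Tan replicate 4 was the highest of all samples, and the 2 lowest samples were also in this group. The means were 304 ± 45.5 (SD, n = 4) and 309 ± 129 (SD, n = 4), a log2 fold change of 0.021 (SE 0.25, adjusted p = 0.998 by edgeR). The direction had no footing: without LPS + Tan replicate 4 the log2 fold change was -0.29, and without LPS replicate 3 or 4 it was -0.043 or -0.0037. Icam1 likewise went to -0.12 without LPS + Tan replicate 4.

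Icam2 encodes ICAM-2, which endothelium carries without stimulation. Its CPM was 105, 78.5, 87.6 and 106 in LPS replicates 1 to 4 and 117, 68.8, 110 and 130 in LPS + Tan replicates 1 to 4. In LPS + Tan, 3 samples were above every LPS sample and replicate 2 was below all of them. The log2 fold change was 0.18 (SE 0.18, adjusted p = 0.966 by edgeR).

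Pecam1, the gene of CD31, had a CPM of 1168, 949, 1062 and 1135 in LPS replicates 1 to 4 and 1462, 986, 1290 and 1179 in LPS + Tan replicates 1 to 4. It showed the layout of Icam2, with 3 LPS + Tan samples above every LPS sample and replicate 2 second lowest of all. The means were 1079 ± 97.1 (SD, n = 4) in LPS and 1229 ± 200 (SD, n = 4) in LPS + Tan, a log2 fold change of 0.19 (SE 0.13, adjusted p = 0.936 by edgeR). Other endothelial genes went both ways. Of 13 endothelial cell markers, 9 had a positive and 4 a negative log2 fold change with a median of 0.25, and 3 were higher at an unadjusted p below 0.05, against 2.87% of all tested genes, while 0 were lower. These were Tek, the angiopoietin receptor, Kdr, a VEGF receptor, and Eng, a TGF-β co-receptor, with log2 fold changes of 0.51, 0.37 and 0.29 and adjusted p of 0.924 for each by edgeR. The 4 negative values were those of Flt1, Robo4, Vwf and Cldn5, at -0.17, -0.12, -0.063 and -0.029. The summed CPM of the 13 markers was 3282 to 4118 in LPS and 3604 to 4866 in LPS + Tan.

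Itgam encodes CD11b, the α chain of Mac-1 on neutrophils, monocytes and macrophages. Its CPM was 461, 443, 619 and 420 in LPS replicates 1 to 4 and 714, 462, 534 and 345 in LPS + Tan replicates 1 to 4, and the LPS + Tan group held both the highest and the lowest sample. The log2 fold change was 0.081 (SE 0.21, adjusted p = 0.987 by edgeR), and it was -0.12 without LPS + Tan replicate 1. Itgb2 encodes CD18, the β chain that all β2 integrins share. Its CPM was 260, 236, 315 and 243 in LPS replicates 1 to 4 and 336, 294, 274 and 228 in LPS + Tan replicates 1 to 4, with a log2 fold change of 0.10 (SE 0.14, adjusted p = 0.978 by edgeR). The summed CPM of 11 neutrophil markers overlapped between the groups as well, at 4666 to 6423 in LPS and 4425 to 6203 in LPS + Tan. Of these markers 0 were higher and 0 lower at an unadjusted p below 0.05. The summed CPM of 12 monocyte and macrophage markers was 1585 to 2557 in LPS and 1651 to 2661 in LPS + Tan, where 1 marker, the complement gene C1qa, passed an unadjusted p below 0.05 upwards (log2 fold change 0.28, adjusted p = 0.924 by edgeR) and 0 passed it downwards, against 2.87% higher and 2.25% lower among all tested genes. Of 10 lymphocyte markers and 9 lung epithelial markers tested, 0 passed an unadjusted p below 0.05 in either direction.

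**Figure D2:**
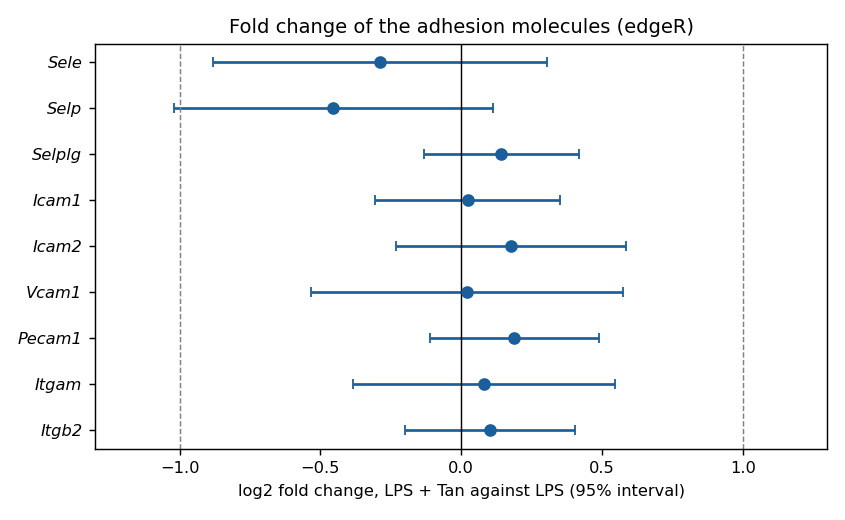
Log2 fold change of LPS + Tan against LPS (horizontal axis) with its 95% interval from edgeR for each of the 9 genes (4 samples per group), with dashed lines at a doubling and a halving. Every interval includes 0, and that of Selp alone extends past the line of a halving.

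The intervals give the uncertainty of each difference in the fit to all 8 samples, and they rest on single libraries. For Sele the log2 fold change was -0.29 (SE 0.27) in that fit and -0.61 (SE 0.20) without LPS + Tan replicate 2. The 95% interval lay between a halving and a doubling for 8 of the 9 genes, all but Selp, and for 83.2% of all tested genes. Selplg, Icam1, Pecam1 and Itgb2 had the narrowest intervals, with upper folds of 1.34, 1.28, 1.40 and 1.32 and lower folds of 0.911, 0.809, 0.926 and 0.871.

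A single library weighed on several genes. Without LPS + Tan replicate 2, the log2 fold change was -0.61 for Sele, -0.71 for Selp, 0.34 for Icam2 and 0.28 for Pecam1, and these 4 genes then passed an unadjusted p below 0.05 by edgeR. Their adjusted p were 0.338, 0.311, 0.392 and 0.484 by edgeR, so that 0 of 9 passed the adjusted threshold, and leaving out this library raised the share of all tested genes at an unadjusted p below 0.05 to 10.2%, with 5.15% higher and 5.06% lower. Without LPS replicate 3, Selplg alone passed an unadjusted p below 0.05 (log2 fold change 0.26, adjusted p = 0.999 by edgeR), where 3.69% of tested genes did. Other omissions made the same differences smaller. The log2 fold change was -0.10 for Sele without LPS + Tan replicate 3, -0.20 for Selp without LPS replicate 3, 0.065 for Icam2 without LPS + Tan replicate 4, 0.092 for Pecam1 and 0.0066 for Itgb2 without LPS + Tan replicate 1, and 0.038 for Selplg without LPS replicate 2. No other left-out library and none of the other alternatives run brought any of the 9 below an unadjusted p of 0.05. LPS + Tan replicate 2 had the highest platelet sum and the lowest neutrophil sum of the 8 samples and the lowest endothelial sum of its group, and the part of these in the values was not tested.

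**Figure D3:**
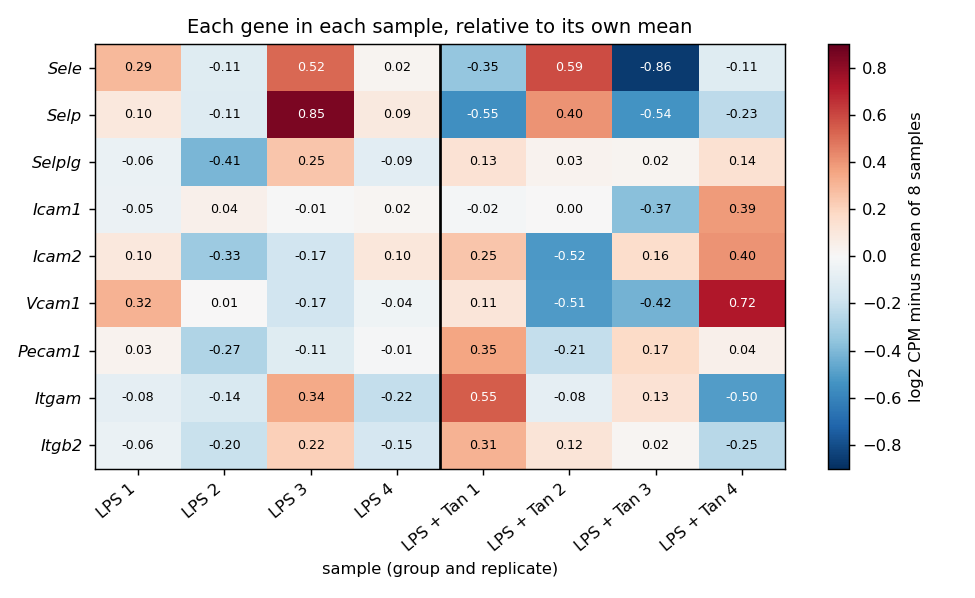
Log2 CPM of each gene (rows) in each of the 8 samples (columns), minus the mean of that gene over the samples, as colour and number. Sele and Selp vary together but have their ends in different samples, with Sele from -0.86 in LPS + Tan replicate 3 to 0.59 in LPS + Tan replicate 2 and Selp from -0.55 in LPS + Tan replicate 1 to 0.85 in LPS replicate 3, while Itgam and Itgb2 have both ends in the same samples, LPS + Tan replicates 4 and 1.

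To see which genes varied together between samples, they were compared with each other over the 8 samples, in log2 CPM, for all 36 pairs. Itgam and Itgb2, whose products form 1 receptor, had a Pearson r of 0.913 (exact permutation p = 0.00122, adjusted p = 0.0438 over the 36 pairs) and a Spearman rho of 0.952 (exact permutation p = 0.00114, adjusted p = 0.0402). Without the 2 samples farthest from the median of Itgam r was 0.728, and on deviations from the group means it was 0.927. Sele and Selp had an r of 0.890 (exact permutation p = 0.00392, adjusted p = 0.0705) and a rho of 0.929 (exact permutation p = 0.00223, adjusted p = 0.0402). Their r was 0.944 without the 2 farthest samples and 0.869 on deviations from the group means. Thus 1 of the 36 pairs passed an adjusted p below 0.05 by r and 2 by rho. All genes of a sample share its library and its mixture of cells.

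Icam2 and Pecam1, both constitutive in endothelium, had an r of 0.801 and a rho of 0.881 (exact permutation p = 0.0168 and 0.00724, adjusted p = 0.201 and 0.0869), and r fell to 0.558 without the 2 farthest samples of Icam2. Between the endothelial selectins and these 2 genes r was negative in all 4 pairs, from -0.66 to -0.57 (exact permutation p from 0.0726 to 0.136, adjusted p from 0.449 to 0.475). For Icam1 and Vcam1 r was 0.735 (exact permutation p = 0.0628, adjusted p = 0.449) but rho was 0.286 (exact permutation p = 0.501, adjusted p = 0.859), and r was -0.42 without the 2 farthest samples, so that the relation rests on those. Sele and Vcam1, both known as inducible in endothelium, had an r of -0.036 (exact permutation p = 0.931, adjusted p = 0.957) and a rho of -0.24 (exact permutation p = 0.582, adjusted p = 0.911).

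**Figure D4:**
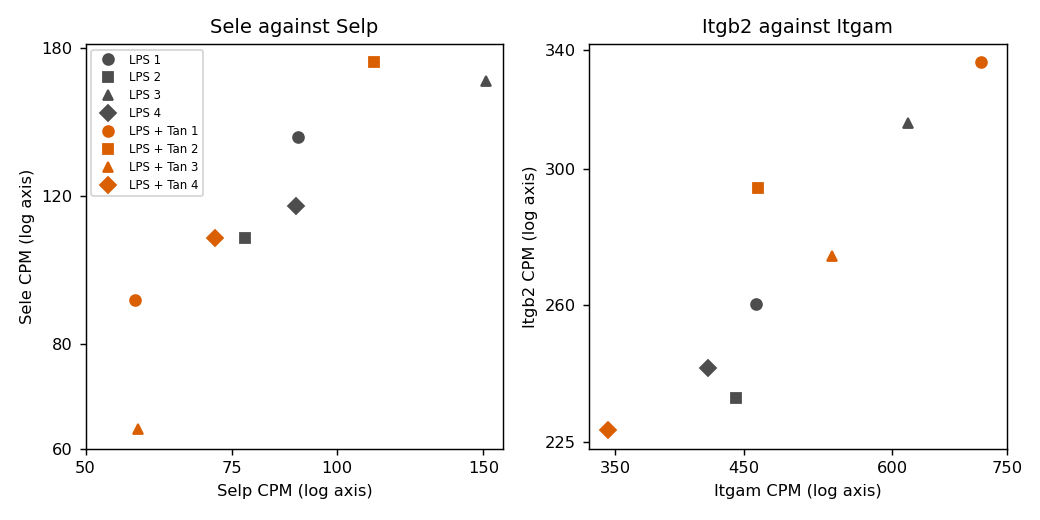
CPM of Sele against Selp (left) and of Itgb2 against Itgam (right) in the 8 samples, on log axes, with colour for the group and symbol for the replicate. In both panels the LPS and LPS + Tan samples lie along 1 band, with r of 0.890 and 0.913.

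Ratios within a sample do not depend on scaling and were tested by two-sided exact permutation, where 70 ways to split 4 and 4 samples allow no p under 0.0286. None of 14 ratios passed the test between the groups, and the lowest adjusted p over the 14 was 0.9. The log2 ratio of Itgam to Itgb2 was 0.83 ± 0.24 (SD, n = 4) in LPS + Tan and 0.87 ± 0.085 (SD, n = 4) in LPS (exact permutation p = 0.686). That of Sele to Selp was 0.50 ± 0.25 and 0.40 ± 0.22 (exact permutation p = 0.571). Set against the mean of the endothelial cell markers, Selp was at -1.81 ± 0.58 in LPS + Tan and -1.18 ± 0.47 in LPS on the log2 scale, a difference of -0.62 (exact permutation p = 0.171), and Sele differed by -0.53 (exact permutation p = 0.257). On the same scale Pecam1 differed by 0.015 and Icam2 by -0.016, with exact permutation p of 0.771 and 0.914. Against Pecam1 itself, Selp differed by -0.64 (exact permutation p = 0.2), with LPS + Tan replicates 1, 3 and 4 below all LPS samples and replicate 2 above 3 of them. Without LPS + Tan replicate 2, the difference was -0.95 for Selp against Pecam1, and -0.90 for Selp and -0.85 for Sele against the endothelial markers. Each of these 3 then had an exact permutation p of 0.0286, the smallest that 35 splits allow, with an adjusted p of 0.133 over the 14 ratios. Without LPS replicate 3, they were -0.43, -0.39 and -0.39, and the difference for Sele was -0.29 without LPS + Tan replicate 3, with exact permutation p from 0.314 to 0.457. Against the mean of the neutrophil markers, Selplg, Itgam and Itgb2 differed by 0.14, 0.026 and 0.074, with exact permutation p of 0.257, 0.943 and 0.629.

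The other genes of the adhesion cascade were examined in 4 lists. Of 21 genes for selectin ligands and the enzymes that glycosylate them, 19 were tested, and 1 was lower and 0 were higher at an unadjusted p below 0.05, against 2.25% lower and 2.87% higher among all tested genes. It was B4galt1, a galactosyltransferase, at 245 CPM in LPS and 199 CPM in LPS + Tan (log2 fold change -0.30, SE 0.12, adjusted p = 0.924 by edgeR). It no longer passed without LPS replicate 1 or 3, without LPS + Tan replicate 1 or 3, or with the replicate number as a block, where 0 genes of the 4 cascade lists were lower, while 5 were lower without LPS + Tan replicate 2, against 5.06% of all tested genes. Cd24a, a mucin-type ligand of P-selectin, had a log2 fold change of -0.30 and did not pass that threshold. Cd34, a sialomucin of endothelium with a median FPKM of 164, had a log2 fold change of 0.13. The lymph node ligands Glycam1 and Madcam1 had too few counts for a test. The median log2 fold change of the list was -0.020.

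Of 19 genes for other leukocyte integrins and the proteins that activate them, 18 were tested and 0 passed an unadjusted p below 0.05 in either direction, with a median log2 fold change of 0.081. In level, Itgam was the main α partner of Itgb2, with a median FPKM of 98.0, against 28.4 for Itgal, the α chain of LFA-1, and 5.29 for Itgax, while Itgad had too few counts for a test. Of the VLA-4 chains that bind VCAM-1, Itga4 had a median FPKM of 5.57 and the widely used Itgb1 one of 331. Their log2 fold changes were -0.24 and 0.032. Rap1b, a GTPase of integrin activation with a median FPKM of 336, had a log2 fold change of -0.0041. The genes of lowest p were Itga9 and Rasgrp2, an exchange factor for RAP1, with log2 fold changes of -0.25 and 0.27.

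Of 18 genes of the endothelial junction and of transmigration, Cd99 was not found by its symbol, 16 were tested and 0 passed an unadjusted p below 0.05, with 5 positive and 11 negative log2 fold changes and a median of -0.089. Cdh5, the gene of VE-cadherin, had a median FPKM of 296 and a log2 fold change of -0.15, and Plvap, which builds the diaphragms of endothelial fenestrae and caveolae, had 274 and 0.035. Cd47, the ligand of SIRPα, and Alcam had the lowest p of this list, with log2 fold changes of -0.18 and -0.14. The 11 genes that anchor adhesion molecules to actin or shed them were all tested and 0 passed, with a median log2 fold change of -0.038. Msn and Ezr, the linkers moesin and ezrin, had log2 fold changes of -0.085 and -0.082, and their relative Rdx had one of 0.26. Cttn, the gene of the actin-binding protein cortactin, had one of -0.11. The groups overlapped in CPM for every tested gene of the 4 lists.

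**Figure D5:**
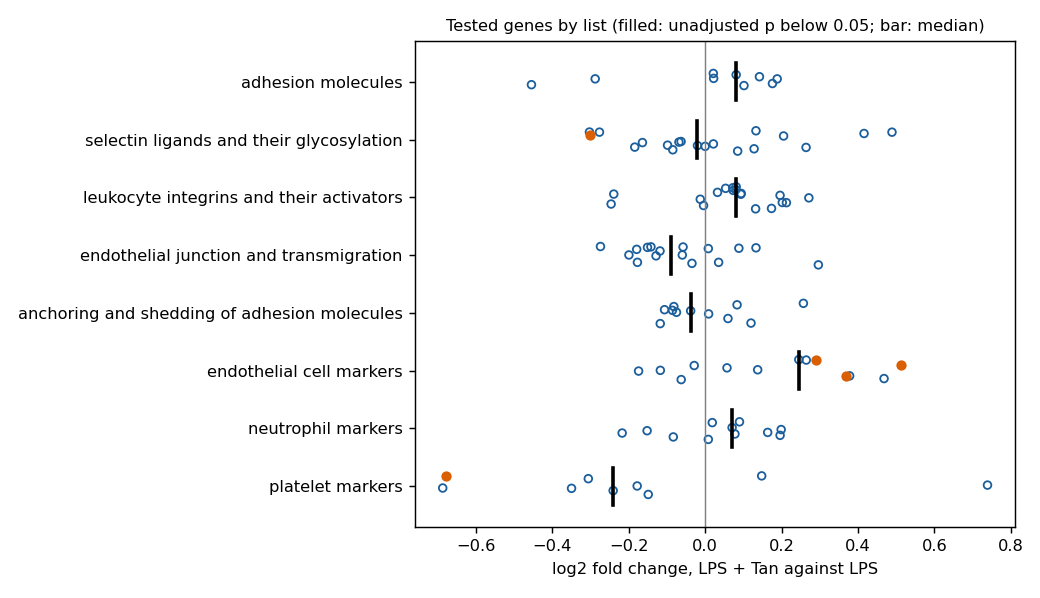
Log2 fold change of LPS + Tan against LPS for each tested gene (points) of the 9 adhesion molecules, the 4 lists of the adhesion cascade and the endothelial, neutrophil and platelet markers, with the median as a bar and filled points at an unadjusted edgeR p below 0.05. Of the adhesion and cascade genes B4galt1 alone is filled.

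The tested genes that followed each adhesion molecule most closely over the 8 samples were listed by Pearson r of log2 CPM, as a description with no test, since they are the highest of 15706 genes. Itgb2 was followed by Sirpa (r = 0.980), the myeloid receptor of CD47, Fgr (r = 0.978), a myeloid Src kinase, and Apbb1ip (r = 0.977), an adaptor of integrin activation. Itgam was followed by Tnfsf15, Ufl1 and Cyth4 (r = 0.979, 0.978 and 0.978). Sele was followed by Pkp4, Olr1, an endothelial scavenger receptor gene, and Ier2, an immediate early gene (r = 0.975, 0.974 and 0.959). Selp was followed by Riok3, Srxn1 and 4833419F23Rik (r = 0.996, 0.980 and 0.980). Icam1 was followed by Rpl15, Rpl13a and Cox4i1 (r = 0.991, 0.977 and 0.973), and Vcam1 by Blmh and Tmco1 (r = 0.995 and 0.987). Icam2 was followed by Lmo2, Mybl1 and Epdr1 (r = 0.976, 0.972 and 0.967), Pecam1 by Tmem38a, Rnf144a and Impdh1 (r = 0.973, 0.969 and 0.966), and Selplg by Gm13375, Ext2 and Ppp1r3d (r = 0.976, 0.960 and 0.958). At least 49 tested genes reached an r of 0.9 with each of the 9 genes except Selplg, with which 7 did.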

How the data were processed

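The authors deposited a table of raw read counts per gene and a table of FPKM values for 24584 genes. In all 17256 genes with counts in every sample the deposited FPKM were the counts divided by the sample total and by 1 length per gene, within 0.1%. The submitters' processing notes name GRCm38 and mm10, and neither aligner nor counter is named in the sources used here. Methods of the study name TRIzol extraction and a VAHTS kit, whereas the labels name other kits. Columns were mapped by the labels, and 0 were left over.

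The count test was that of edgeR 4.0.16, run under R 4.3.3 (filterByExpr, TMM, quasi-likelihood test, no covariate), which left 15706 genes, with Benjamini-Hochberg adjustment over them. The standard error was the log2 fold change divided by the root of F. Alternatives were DESeq2 1.42.0, limma 3.58.1 (voom, and log2 FPKM with a pseudocount of 1 or 0.1), other scalings and filters, a replicate block and each sample left out. Libraries of a group differed by 7.83 to 22.4 times the sampling noise. On simulated counts of 15706 genes for LPS + Tan against LPS, edgeR recovered 59.0% of 200 genes changed 2-fold, with 4.84% of its calls false. Of 200 genes changed 3-fold it recovered 81.5%, with 6.32% of its calls false. The 9 genes differed by less, with log2 fold changes from -0.45 to 0.19, and recovery of changes of that size was not simulated. The named genes were the 9 members, list genes at an unadjusted p below 0.05, the 2 highest in level and 2 lowest in p of each cascade list, and the 3 genes closest in r to each member. Other genes named were chosen after their values were seen. The members and lists were chosen with earlier results of these data known. Values of some genes that the naming rules covered are not reported here.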

Additional observations from a re-analysis of the deposited data

Results flagged for a closer look

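In 1 of 18 groups of 4 samples examined (9 genes in each group), a sample lay far from the others, where chance gives about 0.9. Selp in LPS replicate 3, at 151 CPM, was set apart from the next LPS sample, at 89.9 CPM, by a share of 0.834 of the range of the group. Itgam, Itgb2, Sele and Selplg were also highest of the LPS group in this sample, within the limit. Without this sample the Selp log2 fold change was -0.20 (adjusted p = 0.999 by edgeR).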

How the results depend on the processing

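Of the 9 genes, Sele, Selp, Selplg, Icam2, Pecam1 and Itgb2 kept their direction under all 18 alternatives, and 0 of the 9 passed an adjusted p below 0.05 under any. With single samples left out, the log2 fold change ran from -0.61 to -0.10 for Sele, -0.71 to -0.20 for Selp, 0.038 to 0.26 for Selplg, 0.065 to 0.34 for Icam2, 0.092 to 0.28 for Pecam1, 0.0066 to 0.20 for Itgb2, -0.12 to 0.13 for Icam1, -0.29 to 0.17 for Vcam1 and -0.12 to 0.23 for Itgam, and 0 to 4 of the 9 genes passed an unadjusted p below 0.05. Vcam1 also changed sign with limma-voom (-0.053), limma on log2(FPKM + 1) of tested or all genes (-0.012 in both) and log2(FPKM + 0.1) (-0.013), and Icam1 with limma-voom (-0.0010). The replicate number marked no pairing, with correlations of same-numbered samples from -0.14 to 0.11. With it as a replicate block, the log2 fold change was -0.059 for Vcam1 and -0.0024 for Icam1, and 0 rather than 1 cascade genes were lower at an unadjusted p below 0.05. Leaving out samples gave 0 to 5 lower and 0 to 1 higher cascade genes, and over all genes 0 to 1 at an adjusted p below 0.05, where DESeq2 gave 35 and limma on log2(FPKM + 1) of all genes 2. Of the ratios, the group difference crossed 0 on leaving out samples for Itgam to Itgb2 (-0.14 to 0.028), Vcam1 to Icam1 (-0.17 to 0.11), Icam1 to Icam2 (-0.35 to 0.0023), Icam2 and Pecam1 to the endothelial markers (-0.11 to 0.12 and -0.035 to 0.051), and Itgam and Itgb2 to the neutrophil markers (-0.090 to 0.16 and -0.014 to 0.14). The cause was not tested.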
